A study of Mus musculus with 7 samples.

Results

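The EphB receptors are a branch of the Eph family of receptor tyrosine kinases. All 5 mouse genes that encode them, Ephb1, Ephb2, Ephb3, Ephb4 and Ephb6, were taken by name, found by Ensembl identifier among the 37620 genes of the count tables, and tested. The tumours came from nude mice whose brains had been implanted with mouse glioblastoma stem-like cells that derive from subventricular zone neural stem cells. There were 4 GSC1 tumours, whose cells carried lgT and Ras, and 3 GSC2 tumours, whose cells carried shp53, were Nf1-/- and carried CDK4. Each genotype was present as 1 cell line, so line and genotype cannot be told apart, and the label for all 7 tumours is NSC-derived tumour cells. The RNA is that of whole tumours with the host cells in them. In such bulk samples fewer cells of a type and less RNA per cell cannot be told apart.

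EphB receptors sit in the cell membrane and bind mainly ephrin-B ligands, which are membrane proteins themselves, so that signals pass between touching cells in both directions. The signal that runs into the receptor's cell uses its kinase, adaptor proteins and Src and Abl family kinases, and often ends in repulsion of the cell from its neighbour. In the brain EphB receptors are known for axon guidance and for the assembly of excitatory synapses, in the subventricular zone for the migration of neuroblasts, and in vessels for the separation of veins from arteries. EphB6 differs from the others in having lost its kinase activity.

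Levels are given in CPM, the read count relative to the TMM-adjusted size of the library, and values of a line are listed in the order of its replicate numbers. The 7 libraries held 18643155 to 32643408 counts on genes. The neural stem cell markers that the labels call for were present, with Sox2 between 70.7 and 198 CPM and Vim between 1619 and 3623 CPM. Markers of normal brain varied far more than EphB genes did. The summed level of 12 neuron markers ran from 617 to 6413 CPM in GSC1 and from 987 to 2902 CPM in GSC2, and that of 12 mature oligodendrocyte markers from 652 to 18120 CPM and from 2656 to 9402 CPM. Markers of hindbrain and spinal cord summed to 548 CPM in GSC1 replicate 3 and 179 CPM in GSC1 replicate 4 and to at most 13.5 CPM in the other tumours, and cerebellar markers to 712 CPM in GSC1 replicate 4 and at most 58.6 CPM elsewhere. GSC1 replicates 3 and 4 and GSC2 replicate 3 stood apart in another way. In them, genes with transcripts of at least 8000 bases were low against genes of at most 2000 bases, with differences of -0.40, -0.36 and -0.70 between the median log2 deviations from each gene's mean over the 7 tumours, and they are called the short-biased libraries here.

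**Figure D1:**
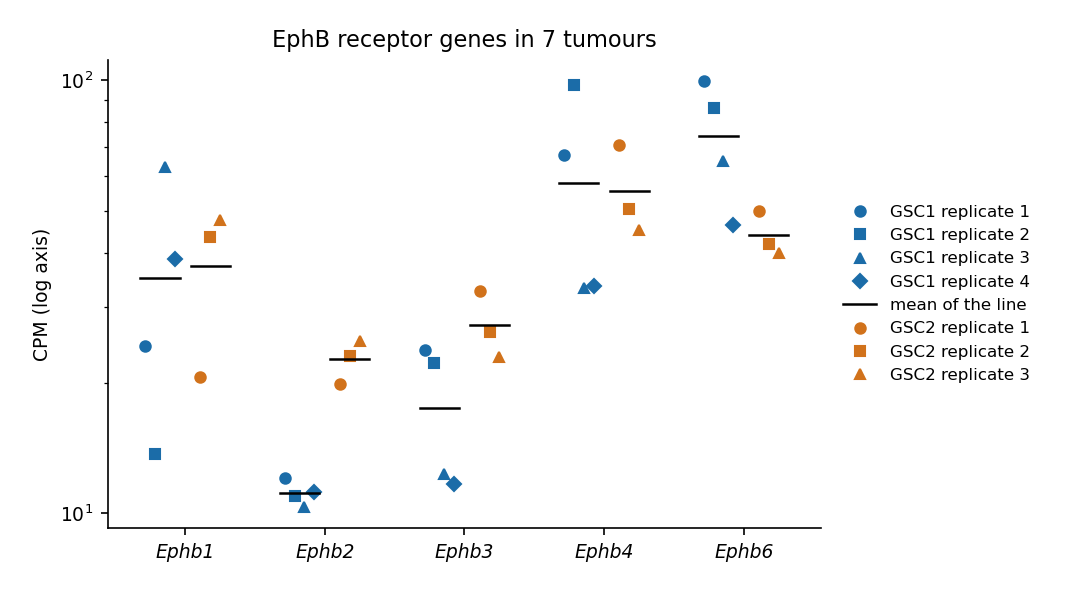
CPM (log axis) of the 5 EphB receptor genes in each of the 7 tumours, blue for GSC1 and orange for GSC2, with the shape giving the replicate and a black bar the mean of the line. For Ephb2 every GSC2 tumour (19.9 to 24.99 CPM) lies above every GSC1 tumour (10.3 to 12.02 CPM), while the lines overlap for the other 4 genes.

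Ephb2, which encodes a receptor of axon guidance and of excitatory synapses, was the member whose values separated the lines. GSC1 tumours gave 12.02, 10.95, 10.3 and 11.2 CPM, GSC2 tumours 19.9, 23.1 and 24.99 CPM. All GSC2 tumours were above all GSC1 tumours, and the GSC1 tumours differed little among themselves (SD 0.6996 around a mean of 11.1 CPM). The log2 fold change, GSC2 minus GSC1, was 1.03 (SE 0.22, 95% interval 0.52 to 1.54, or 1.43-fold to 2.90-fold higher). In edgeR's quasi-likelihood test its unadjusted p was 0.00182, the 55th smallest of 16068 genes, and its Benjamini-Hochberg adjusted p was 0.524, so it did not pass. DESeq2 called it (log2 fold change 0.99, adjusted p = 0.000535). Without the 3 short-biased libraries, which leaves 2 tumours per line, the log2 fold change was 0.90 (edgeR adjusted p = 0.221). With the transcript-length trend of each library as an offset it was 0.904 (SE 0.351) and did not pass in edgeR.

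Of the 5 members 0 had an edgeR adjusted p under 0.05 for the line difference, beside 0% of all 16068 genes. DESeq2 called 1 of the 5, against 0.927% of the genes for which it gave an adjusted p. At an unadjusted p under 0.05 edgeR had 2 of the 5, Ephb2 toward GSC2 and Ephb6 toward GSC1, against 4.21% of all genes. GSC1 and GSC2 values were free of overlap in 1 of the 5, Ephb2, against 5.58% of all genes. Folds were positive for 3 and negative for 2 members, with a median of 0.09, beside a median of -0.03 over all genes tested.

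Ephb3, for a receptor known from the borders of the intestinal crypt and from commissural axons of the forebrain, leaned the same way as Ephb2 with wider spread. Levels were 23.8, 22.2, 12.3 and 11.7 CPM for GSC1, set against 32.6, 26.2 and 22.9 CPM for GSC2. GSC1 replicates 3 and 4 were low, and GSC1 replicate 1 lay above GSC2 replicate 3, so the lines overlapped. Its log2 fold change was 0.64 (SE 0.34, 95% interval -0.15 to 1.42, edgeR adjusted p = 0.9999). Without the 3 short-biased libraries, to which GSC1 replicates 3 and 4 belong, it was 0.35 (edgeR adjusted p = 0.553).

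Ephb1, for a receptor of neurons that acts in the crossing of retinal axons, did not separate the lines. GSC1 tumours spread over 24.4, 13.7, 63.2 and 38.6 CPM, GSC2 tumours over 20.6, 43.4 and 47.5 CPM. Its highest tumour was 4.62 times its lowest, the widest range of the 5 genes, and both ends were GSC1 tumours. The log2 fold change was 0.09 with a 95% interval of -1.17 to 1.35, which holds differences of more than 2-fold in either direction. Its sign changed when single tumours were left out, between -0.18 and 0.51.

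Ephb4, for the receptor of venous endothelium that binds ephrin-B2, overlapped between the lines. For GSC1 the values were 67.3, 97.6, 33.1 and 33.4 CPM, for GSC2 they were 70.9, 50.4 and 45.0 CPM. GSC1 held both the highest and the lowest values, with a pair of tumours on each side of GSC2 replicates 2 and 3. Its log2 fold change of -0.06 (SE 0.44, 95% interval -1.08 to 0.96) turned positive in some other settings, among them 0.18 with the brain score as a covariate. Exons of Ephb4 share 33 bases with Zan on the opposite strand, and those of Ephb1 share 152 bases with Gm26846 on the opposite strand. Reads there cannot be assigned, since the strand setting of the counting is not given in the sources used here.

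Ephb6, the gene of the receptor without kinase activity, which is also expressed in T cells, leaned toward GSC1. GSC1 tumours held 99.6, 86.4, 65.3 and 46.2 CPM, whereas GSC2 tumours held 50.03, 41.8 and 39.9 CPM. The lines overlapped through a single tumour, GSC1 replicate 4, which fell below GSC2 replicate 1. Its log2 fold change was -0.76 (SE 0.30, 95% interval -1.46 to -0.06, edgeR unadjusted p = 0.0369, adjusted p = 0.9999). It stayed negative in all settings run, between -1.03 and -0.59. Of 9 T and NK lymphocyte markers 6 were tested, and edgeR called 0 of them between the lines (3 at an unadjusted p under 0.05, all higher in GSC2). Their summed level was 2.74 to 12.6 CPM in GSC1 and 6.96 to 16.5 CPM in GSC2, with Cd3e and Cd3d at 0 counts in all GSC1 tumours. Their part in the level of Ephb6 was not tested.

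**Figure D2:**
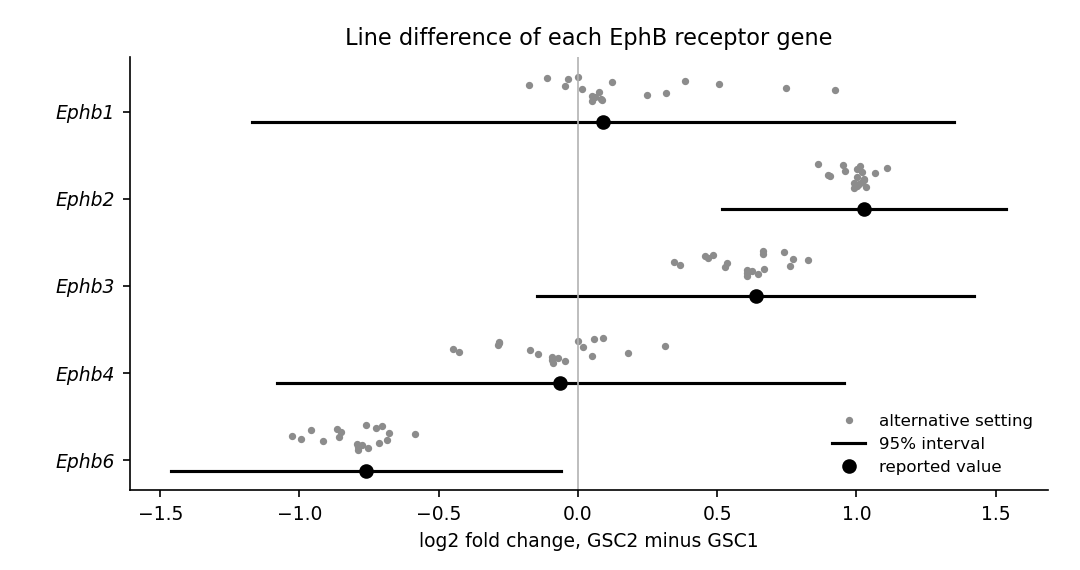
Log2 fold change, GSC2 minus GSC1, of each EphB receptor gene, with the reported value as a black dot, its 95% interval as a line and the alternative settings as grey dots. The grey dots stay above 0 for Ephb2 and Ephb3 and below 0 for Ephb6, and lie on both sides of 0 for Ephb1 and Ephb4.

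The scores of 3 of the 16 marker lists did not overlap between GSC1 and GSC2. For T and NK lymphocytes the score, the mean log2 CPM of the list, was -2.32 to -1.36 in GSC1 and -1.06 to 0.37 in GSC2. The score of the neural stem cell list was 5.04 to 5.57 in GSC1 and 5.70 to 5.92 in GSC2, without overlap, as for Ephb2. That of the venous endothelium list was 4.89 to 5.41 in GSC1 and 4.35 to 4.83 in GSC2. The part of these cells in the EphB levels was not tested.

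Levels of different genes were set side by side per length, as CPM per kilobase of the longest annotated transcript. On that scale the order of the means over the 7 tumours was Ephb6 at 16.3, Ephb4 at 13.1, Ephb1 at 7.70, Ephb3 at 4.56 and Ephb2 at 1.47. Ephb3 exceeded Ephb2 in 7 of 7 tumours, whereas each of the other neighbours in the order was reversed in 2 of 7. The order of neighbours above Ephb3 therefore does not hold beyond the spread of the tumours. The longest Ephb2 transcript has 10902 bases, against 3762 to 4748 for the other members. Per kilobase of coding region, which runs from 2952 to 3042 bases in the 5 genes, Ephb2 was at 5.42 and Ephb3 at 7.27, with Ephb3 higher in 6 of 7 tumours.

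Summed over the 5 genes, GSC1 tumours reached 227, 231, 184 and 141 CPM, GSC2 tumours 194, 185 and 180.3 CPM, so the GSC2 values lay within the range of GSC1. The mean log2 CPM of the 5 genes, which weights them equally, was 4.58 to 5.1 in GSC1 and 5.103 to 5.15 in GSC2, so that the lines just failed to overlap. The make-up of that sum differed. Of the summed level per length, Ephb6 made up 49.6, 42.5, 41.3 and 38.7% in GSC1 and 31.1, 28.0 and 27.7% in GSC2. Ephb2 made up 1.86 to 3.23% in GSC1 and 4.27 to 5.99% in GSC2, and Ephb3 6.15 to 9.42% and 12.6 to 16.1%. These shares depend on one another and on the transcript lengths used, and are given as a description.

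**Figure D3:**
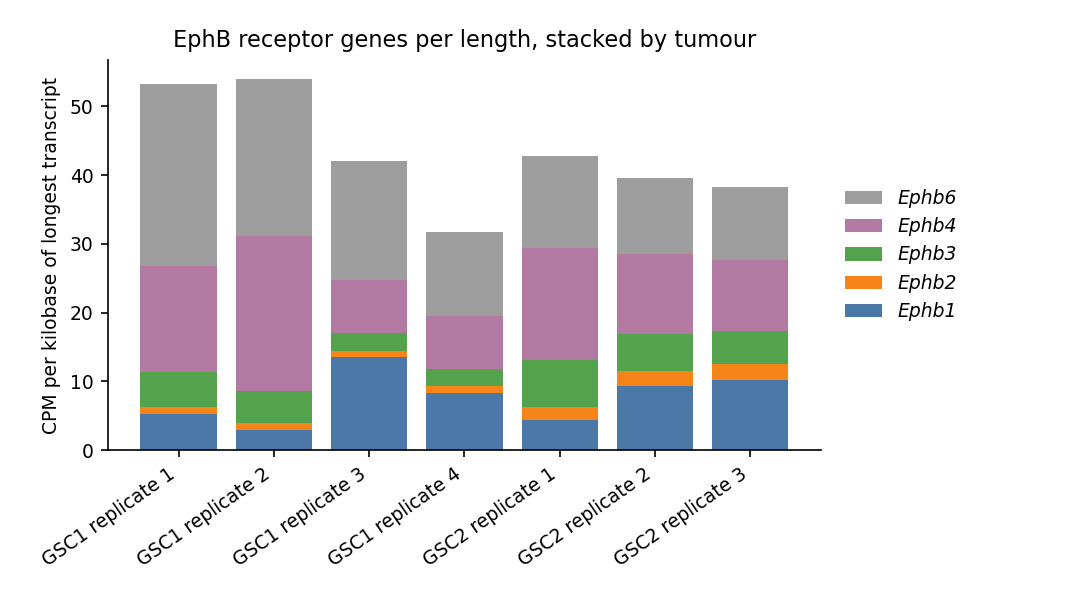
CPM per kilobase of the longest transcript for the 5 EphB receptor genes, stacked, 1 bar per tumour. The Ephb6 segment takes 38.7 to 49.6% of the bar in GSC1 tumours and 27.7 to 31.1% in GSC2 tumours, and the Ephb1 segment is smallest in GSC1 replicate 2, the tumour with the lowest brain score.

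The members were also set against the level of normal brain markers. A brain score was formed as the mean log2 CPM of neuron and mature oligodendrocyte markers, none of which is an EphB gene. Scores were 6.08, 4.75, 8.78 and 7.97 for GSC1, then 6.20, 7.79 and 7.52 for GSC2. Ephb1 rose with this score, by 0.55 on the log2 scale per unit (SE 0.07, edgeR quasi-likelihood adjusted p = 0.00164 over all genes). Its lowest level, 13.7 CPM, was in the tumour with the lowest score and its highest, 63.2 CPM, in the tumour with the highest. Ephb4 fell as the score rose, with a slope of -0.40 (SE 0.06, edgeR adjusted p = 0.00287), from 97.6 CPM at the lowest score to 33.1 CPM at the highest. With the line as a covariate the slopes were 0.54 for Ephb1 (edgeR adjusted p = 0.00136) and -0.41 for Ephb4 (edgeR adjusted p = 0.00182).

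Rising with the score 1 of 5 members passed, against 21.1% of all genes, and falling 1 of 5, against 19.2%. These shares are near the background, so a gene that follows the score is common in these tumours. Without the 3 short-biased libraries, an alternative added after the data were seen that leaves 4 tumours, the slope of Ephb1 was 0.56 (edgeR adjusted p = 0.0143) and that of Ephb4 was -0.30 (edgeR adjusted p = 0.0685), so the call of Ephb4 was lost. The mitosis list fell with the score in 10 of its 10 genes, and the astrocyte list rose in 8 of 9. Which cells carried the EphB reads was not tested.

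The other 3 members gave no call on the score. Ephb2 had a slope of 0.07 (SE 0.17, edgeR adjusted p = 0.748), Ephb6 of -0.21 (SE 0.11, adjusted p = 0.158) and Ephb3 of -0.23 (SE 0.14, adjusted p = 0.205). With the line as a covariate Ephb3 passed, at -0.27 (SE 0.08, edgeR adjusted p = 0.0219), while its slope was 0.09 without the short-biased libraries. At equal brain score the line difference of Ephb2 was 1.03 (SE 0.18, edgeR adjusted p = 0.0570), that of Ephb3 0.76 (SE 0.20, adjusted p = 0.124) and that of Ephb6 -0.69 (SE 0.21, adjusted p = 0.174). None of the 5 passed in that fit, where 0.604% of all genes did. With the length trend as an offset too, a setting added after the data were seen, Ephb2 was at 0.86 (SE 0.29, edgeR adjusted p = 0.169).

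**Figure D4:**
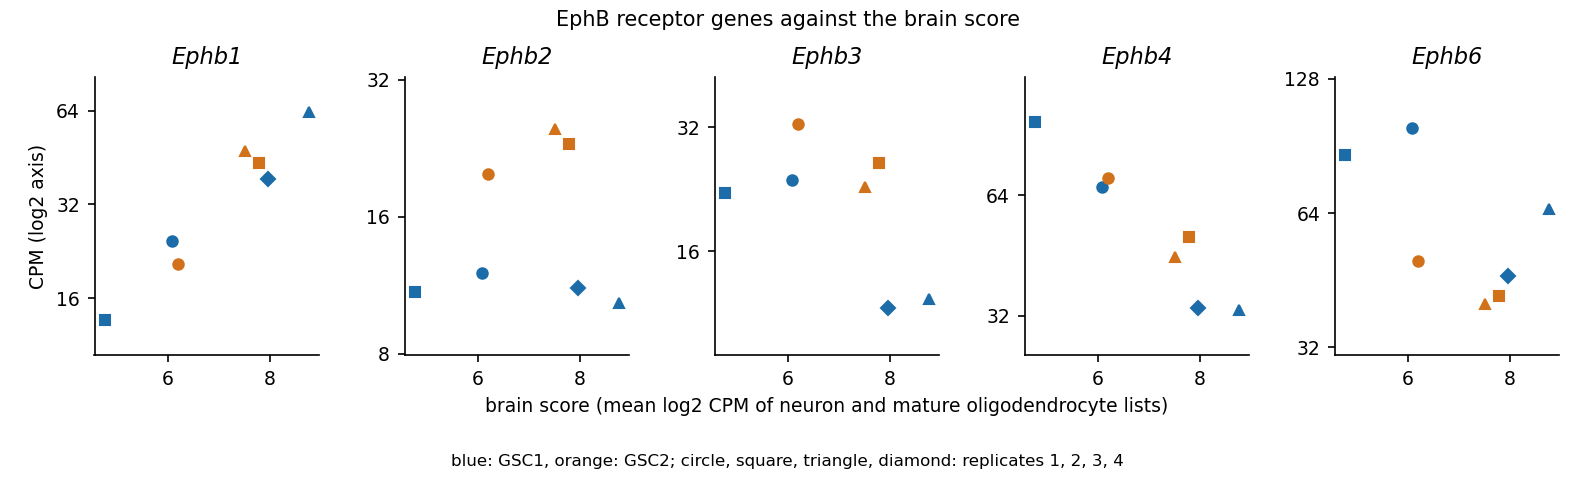
CPM (log2 axis) of each EphB receptor gene against the brain score, 1 point per tumour, blue for GSC1 and orange for GSC2. Ephb1 climbs from 13.7 to 63.2 CPM and Ephb4 descends from 97.6 to 33.1 CPM across the score, while the Ephb2 points form 1 level per line.

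To show the start-site sequence of the pair that passed the slope test in opposite directions, the 250 bases before the RefSeq transcription start of Ephb1 and Ephb4 are printed 5′ to 3′ on the gene's strand (build GRCm38.p6, from RefSeq, not the build of the counts). Capitals mark the GC-box GGGCGG on either strand, a motif bound by Sp family factors.
Ephb1 (chr9:102354694-102354943, minus strand): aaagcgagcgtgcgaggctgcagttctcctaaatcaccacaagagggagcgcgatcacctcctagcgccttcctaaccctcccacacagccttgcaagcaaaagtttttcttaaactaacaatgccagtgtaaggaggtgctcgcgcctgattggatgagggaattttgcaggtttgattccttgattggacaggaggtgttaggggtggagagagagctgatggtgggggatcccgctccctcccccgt
Ephb4 (chr5:137349859-137350108, plus strand): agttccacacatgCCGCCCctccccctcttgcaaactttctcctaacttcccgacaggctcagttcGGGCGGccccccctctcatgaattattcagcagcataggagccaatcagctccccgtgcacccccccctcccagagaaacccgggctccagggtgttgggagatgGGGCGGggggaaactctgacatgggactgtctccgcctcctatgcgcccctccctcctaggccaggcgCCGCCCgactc

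The Ephb1 stretch held 0 matches to the GC-box and the Ephb4 stretch 4, while Ephb2 held 0, Ephb3 2 and Ephb6 5. Of 32851 promoter stretches of the same length, 32.7% held the motif at least once. GC content was 54% for Ephb1, 68.4% for Ephb2, 65.6% for Ephb3, 64% for Ephb4 and 76.8% for Ephb6, all above the median of 52.4% over those stretches. The core CTTTG of TCF/LEF sites, searched on both strands, was in none of the 5 stretches and in 48.6% of all, which says only that these letters are not in this window. A match is a description of the letters, and no binding was measured.

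Ephb4 was also set against markers of endothelium in general, since it marks veins. The score of 12 endothelial markers varied little, from 4.21 to 4.67 in GSC1 and from 3.99 to 4.47 in GSC2, with a summed level of 371 to 410 CPM and 275 to 372 CPM. Ephb4 had a slope of -1.52 on this score (SE 0.73, edgeR adjusted p = 0.285). None of the 5 members passed, and 0.00622% of all genes did. Without GSC2 replicate 3, though, 2 of the 5 passed, Ephb1 with a slope of 2.62 (edgeR adjusted p = 0.0381) and Ephb4 with -2.23 (adjusted p = 0.0404). In that fit 4198 genes passed over the whole table, against 1 with all tumours kept. Among the tumours left, GSC1 replicates 3 and 4 and GSC2 replicate 2 had the highest endothelial scores (4.47 to 4.67, against 4.01 to 4.24). They also had the highest brain scores (7.79 to 8.78, against 4.75 to 6.20). The same genes passed in the same directions on the brain score. A relation to endothelium apart from brain content was not tested in that fit. No slope on the venous list was fitted. Of the venous markers, Nr2f2 and Nrp2 were highest in GSC1 replicate 2, as Ephb4 was. Aplnr and Vwf were highest in GSC1 replicate 3 and Flt4 in GSC2 replicate 1.

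The ephrin-B ligand genes did not pass between the lines either. Efnb1 was at 24.2 ± 9.04 CPM (SD, n = 4) in GSC1 and 20.1 ± 2.12 CPM (SD, n = 3) in GSC2. Efnb2, for the ligand of EphB4 in arteries, gave 105, 142, 44.1 and 53.2 CPM for GSC1, with 108, 83.4 and 45.2 CPM for GSC2. Efnb3, for a ligand of neurons and myelin, was at 16.5, 8.999, 213 and 70.3 CPM against 27.7, 89.3 and 110.1 CPM, the widest range among the receptor and ligand genes. It rose with the brain score, with a slope of 1.15 (SE 0.12, edgeR adjusted p = 0.000863), while Efnb2 fell (-0.43, SE 0.09, adjusted p = 0.00790) and so did Efnb1 (-0.24, SE 0.08, adjusted p = 0.0403). The receptor and ligand genes thus held members on both sides of the score, Ephb1 and Efnb3 rising, Ephb4, Efnb1 and Efnb2 falling.

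The remaining pair of binding partners had values free of overlap between the lines, as did 5.58% of all genes. Efna5, for an ephrin-A that also binds EphB2, gave 5.42, 5.14, 6.87 and 3.19 CPM for GSC1, with 1.37, 2.21 and 1.40 CPM for GSC2 (-1.63 on the log2 scale, SE 0.43, edgeR adjusted p = 0.676). Epha4, for the EphA receptor that also binds ephrin-B, gave 21.8, 16.3, 24.2 and 23.7 CPM for GSC1, with 40.5, 81.2 and 87.0 CPM for GSC2 (1.70, SE 0.31, edgeR adjusted p = 0.362). DESeq2 called both, with adjusted p values of 0.00998 and 0.00167, against 0.927% of the genes for which it gave an adjusted p. Efna5 rested on 27, 63 and 28 counts in the GSC2 tumours. At equal brain score Epha4 passed in edgeR (1.62, SE 0.23, adjusted p = 0.0351). Epha4 thus lay on the same side as Ephb2, and Efna5 on the opposite side.

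**Figure D5:**
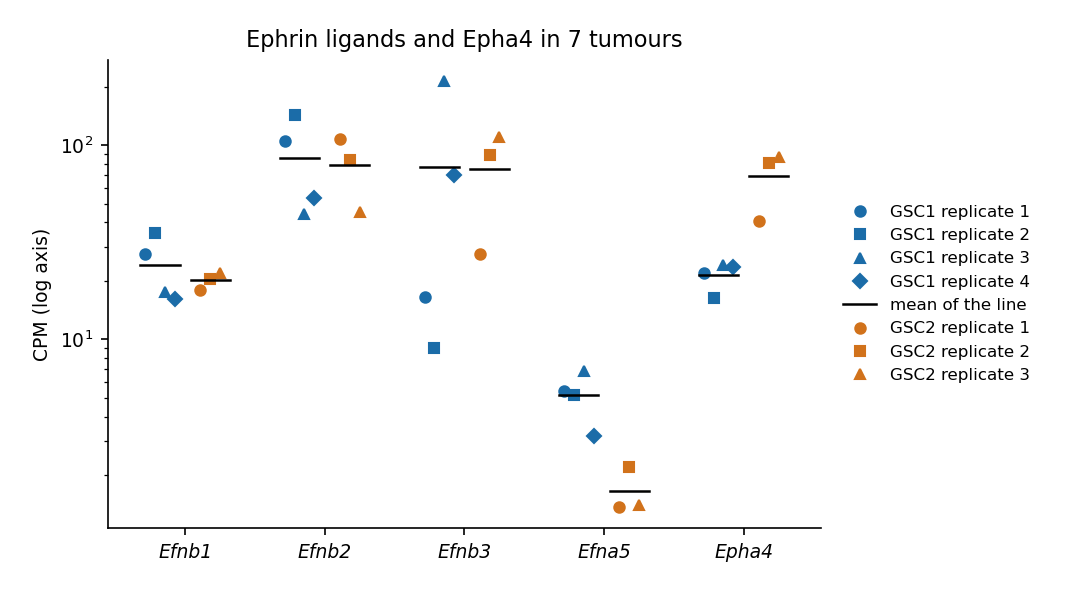
CPM (log axis) of the ephrin-B ligand genes, Efna5 and Epha4 in each tumour, blue for GSC1 and orange for GSC2, with a black bar at the mean of the line. Efnb3 runs from 8.999 to 213 CPM within GSC1, Efna5 lies higher in all GSC1 tumours and Epha4 in all GSC2 tumours.

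Signalling genes were read from 8 lists of 59 genes, of which 58 were tested. One list holds 10 Wnt target genes, and the others hold genes that act below or beside EphB receptors. In edgeR's test of the lines 0 passed in either direction. At an unadjusted p under 0.05 there were 6 toward GSC2, the Wnt target Axin2 among them, and 2 toward GSC1, beside 372 and 305 of all 16068 genes (4.21% together). The median log2 fold change was 0.00, beside -0.03 over all genes. Of the genes with the smallest p, Vav3 was at 13.3 ± 1.64 CPM (SD, n = 4) in GSC1 and 28.6 ± 7.87 CPM (SD, n = 3) in GSC2 (1.10, SE 0.27, edgeR adjusted p = 0.632), and Kalrn, for kalirin of dendritic spines, at 19.2 ± 13.3 and 55.4 ± 12.1 CPM (1.53, SE 0.51, adjusted p = 0.983). Neither gene overlapped between GSC1 and GSC2. Genes named from these lists, here and below, were picked by smallest p, so a separation of the lines partly follows from that choice. Of all genes 5.58% did not overlap, and the share among the 58 was not counted. The Src family kinase gene Fyn had 148, 149.6, 135 and 114 CPM for GSC1, with 215.5, 198 and 195 CPM for GSC2, again without overlap (0.57, SE 0.20, edgeR adjusted p = 0.9999).

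On the GSC1 side stood Sdc2, for syndecan-2, a proteoglycan that EphB2 phosphorylates in spines. Values were 238, 310.1, 263 and 207.5 CPM for GSC1, with 138, 138 and 154 CPM for GSC2, all GSC1 tumours being higher (-0.83, SE 0.22, edgeR adjusted p = 0.691). Grin2b, for an NMDA receptor subunit, went the other way, at 2.99 ± 1.88 CPM (SD, n = 4) in GSC1 and 8.59 ± 4.00 CPM (SD, n = 3) in GSC2 (1.52, SE 0.61, adjusted p = 0.9999). Ptpn13, for a phosphatase of ephrin-B, was at 18.6 ± 6.60 and 44.5 ± 23.4 CPM, with overlap, and the protease gene Mmp9 at 5.45 ± 2.46 and 2.25 ± 1.18 CPM. DESeq2 called 2 of the signalling genes, Vav3 (adjusted p = 0.0471) and Sdc2 (adjusted p = 0.0241), beside 0.927% of all genes. The other genes taken from the lists by smallest p had log2 fold changes of -0.84 for Dok1, -1.46 for Grb7, 0.19 for Ptk2, -0.45 for Rras, -0.71 for Limk1, 0.78 for Rgs3, -0.54 for Grip2 and -1.98 for Sp5, each with an edgeR adjusted p of 0.9999.

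On the brain score 12 of the same 58 genes rose and 12 fell in edgeR's test, shares near the 21.1% and 19.2% of all genes. Wnt targets made up 3 of the risers and 1 of the fallers. Risers included Grin1, for the obligate NMDA receptor subunit (slope 0.67, SE 0.08, adjusted p = 0.00135), and the adaptor gene Grb10 (0.63, SE 0.11, adjusted p = 0.00412). Fallers included the adaptor genes Shc1 (-0.41, SE 0.06, adjusted p = 0.00181) and Rasa1, for a Ras GTPase activating protein (-0.53, SE 0.09, adjusted p = 0.00343), and the kinase gene Abl2 (-0.52, SE 0.10, adjusted p = 0.00592). The median slope was -0.02, beside 0.00 over all genes.

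For each member the 3 genes with the most similar log2 CPM over the 7 tumours were taken by Pearson r among 11923 genes. Ephb1 was most like Neu4, a sialidase gene (r = 0.997), Mpp2 (r = 0.995) and Gng2 (r = 0.991). Ephb4 was most like Adam9 (r = 0.997), Mbtps1 (r = 0.996) and Depdc1a (r = 0.995), and Ephb6 like Cybc1 (r = 0.990), Lsp1 (r = 0.984) and Nfil3 (r = 0.967). Ephb3 followed Slfn8 (r = 0.990), Gadd45a (r = 0.986) and Exosc1 (r = 0.984). For Ephb2 the likeness was lower, with Cebpd (r = 0.963), the integrin gene Itga8 (r = 0.960) and Emilin1 (r = 0.956). Itga8 had 3.996, 4.48, 1.91 and 3.38 CPM for GSC1, with 37.9, 35.5 and 27.8 CPM for GSC2, a wider step between the lines than that of Ephb2. These values are a description with no test, since the genes were picked as the highest of many over 7 libraries that share differences in brain RNA and transcript length.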

How the data were processed

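RNA of 7 tumours was sequenced from NEBNext Ultra libraries. Each deposited table holds raw counts of reads per Ensembl gene, as made by the authors. TopHat2 2.0.11 and HTSeq appear in the submitters' processing notes, which also name mm9 and dm3 without a role. The 5 summary lines of each table were left out, among them reads on no gene (6.19 to 14.2% of reads) and reads without a unique position (12.8 to 21.0%). Symbols (32897 of 37620 identifiers) and lengths come from GENCODE on a later build, so no gene coordinates are given. Nothing says whether the tumours of a line came from separate mice, so p-values measure only the spread between these samples. That spread may be technical in part, but the marker levels show that samples of a line also differed in tissue content.

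The line difference and the slopes on list scores (mean log2 CPM, prior count 2) were tested with edgeR 4.0.16 in R 4.3.3, using TMM factors, filterByExpr, robust quasi-likelihood fits and Benjamini-Hochberg adjustment over 16068 genes. An SE is the log2 fold change over the root of F. Alternatives used DESeq2 1.42.0, limma 3.58.1, other factors, filters and covariates, a replicate block, a loess length offset and left-out tumours. In simulated counts over 16068 genes, the line test found 0% of the genes altered 2-fold, 22% at 4-fold, 76% at 8-fold and 84% at 16-fold, and made 7 false calls. The brain score test found 0% at a slope of 0.25, 2% at 0.5, 64% at 1 and 96% at 2, with 2 false calls. Counts were drawn gene by gene, so the differences in brain RNA and transcript length that many genes share were not shared in them. In the tumours the brain score test called 6472 of 16068 genes. Among these were Ephb1 at a slope of 0.546 (SE 0.073) and Ephb4 at -0.401 (SE 0.062). Whether the shares found in the drawn counts hold for the fit to the tumours was not tested.

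Members and lists were chosen with earlier results of these data known. Named genes are the members, their ligands and Epha4, up to 2 genes per signalling list by smallest p, and the 3 most alike genes per member with a mean of at least 5 CPM. Genes named for the brain score were chosen after their values were seen.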

Additional observations from a re-analysis of the deposited data

Results flagged for a closer look

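In 26 genes named in the report (members, ligands, Epha4 and signalling genes), each GSC1 group of 4 tumours was searched for a tumour far from the rest, which chance finds in about 1 group of 20. The gap of Mmp9 in GSC1 replicate 2, at 9.11 CPM against 3.97 to 4.57 CPM in the other GSC1 tumours, was large enough. So was that of Sp5, a Wnt target gene, at 17.8 CPM in GSC1 replicate 4. No EphB receptor gene had such a tumour.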

How the results depend on the processing

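The EphB genes were all above 10 CPM in every tumour, and there were 4 GSC1 and 3 GSC2 tumours. With the brain score as a covariate the SE of the line difference went from 0.539 to 0.184 for Ephb1 and from 0.219 to 0.183 for Ephb2. What set the width of the intervals was not tested. For the line difference, 0 genes were called by edgeR (677 at an unadjusted p under 0.05), 1 without a filter, 174 by DESeq2, 1 by limma-voom, 97 with the brain score as a covariate, 55 without the 3 short-biased libraries, 207 with brain score and length offset (added after seeing the data), and 0 to 0 with single tumours left out. DESeq2 called 1 EphB gene and 2 signalling genes. Ephb2, Ephb3 and Ephb6 kept their direction in all settings run. Other folds changed sign. Ephb1 ran from -0.176 to 0.508 and Ephb4 from -0.288 to 0.313 with single tumours left out, they were 0.923 and -0.427 with the endothelial score and 0.748 and -0.448 without the short-biased libraries, and Ephb4 was 0.05 by limma-voom, 0.179 with the brain score and 0.092 with brain score and length offset. Efnb2 was 0.12 and 0.001 in the last 2 settings and -0.425 to 0.224 with tumours left out. Efnb3 was 0.796 by limma-voom, 0.976 with the replicate block, 0.426 with the brain score, 2.6 with the endothelial score, 2.195 without the short-biased libraries, 0.365 with brain score and length offset, and -0.402 to 1.21 with tumours left out. With the endothelial score Grb7 was 0.775 (reported as -1.46), Ptk2 -0.044 (0.186), Limk1 0.188 (-0.713) and Grip2 0.779 (-0.542), and without the short-biased libraries they were 1.153, -0.01, 0.341 and 1.14. Sp5 ran from -2.4 to 0.068 with tumours left out. The causes were not tested.

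Deviations of same-numbered tumours correlated at 0.583, -0.306 and 0.409, against -0.635 to 0.699 for the other pairs. So few values, in tumours that differ in brain content, cannot settle whether the numbers pair the samples. With the replicate block 0 genes and 0 EphB genes were called, Ephb2 was 1.026, Ephb6 -0.917, Grb7 0.175 and Sp5 0.267.

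On the brain score 2 EphB genes were called with any single tumour left out (3573 to 6929 genes over the table), 4 with line and length offset, and 1 without the short-biased libraries (1547 genes, and a slope of 0.092 for Ephb3). The slope of Ephb2 was -0.059 on the neuron list alone and -0.114 to 0.24 with tumours left out. On the endothelial score 0 genes were called with the line as a covariate, 1308 by DESeq2 and 0 to 4198 with tumours left out, the most without GSC2 replicate 3, with 0 to 2 EphB genes, and the slope of Ephb6 ran from -0.688 to 0.358. Per kilobase of median transcript length, Ephb1 averaged 14.69 CPM, Ephb2 5.205, Ephb3 10.24, Ephb4 14.59 and Ephb6 88.91. Per kilobase of coding region the means were 12.16 for Ephb1, 5.425 for Ephb2, 7.272 for Ephb3, 19.01 for Ephb4 and 20.15 for Ephb6. The order of the means by coding region was that by longest transcript, and by median length only Ephb1 and Ephb4 changed places, by a small margin. Single tumours did not hold to that order. By coding region Ephb6 exceeded Ephb4 in 3 of 7 tumours, Ephb4 exceeded Ephb1 in 4 of 7 and Ephb1 exceeded Ephb3 in 5 of 7. The distances between the genes depend on the length used.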

Other observations

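Of 10 Wnt target genes, some of which are known to be regulated together with EphB genes in the intestine, 9 were tested and 0 passed between the lines in edgeR's test, with 1 at an unadjusted p under 0.05. That gene, Axin2, a feedback inhibitor of Wnt signalling, was at 9.96, 4.74, 8.50 and 13.04 CPM for GSC1 and at 20.7, 20.99 and 13.07 CPM for GSC2 (log2 fold change 1.012, SE 0.38, edgeR adjusted p = 0.9999). GSC1 replicate 4 and GSC2 replicate 3 nearly met. On the brain score 3 of the 9 rose, Nkd1, Rnf43 and Lgr5, and 1 fell, Tcf7, beside 21.1% and 19.2% of all genes.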
